A study of Mus musculus with 12 samples.

Results

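Mast cell identity factors and receptors were followed in tumors of P815, a mouse mastocytoma cell line, that is, a line from a mast cell tumor. The members are the 10 genes Kit, Gata1, Gata2, Mitf, Tal1, Fcer1a, Ms4a2, Il1rl1, Cd200r3 and Mrgprb1, taken by symbol from the 32248 gene symbols of the count tables. RNA was sequenced from 12 tumors, each from a different DBA/2 mouse with a single tumor under the skin of the back. There were 4 groups of 3 mice. The P815-IFNG line (P815-IFNγ in the sample labels) carries the transactivator GAVPO, driven by the EF-1α promoter, and a UAS promoter that GAVPO turns on in blue light to express mouse Ifng and Cxcl10 with a luciferase reporter. P815-M is the control line, with neither GAVPO nor the cytokines, and both lines carry mRuby and firefly luciferase driven by EF-1α. By the study's methods each line was 1 clone grown from a sorted cell, so a difference between the lines is also a difference between 2 clones. Light began 7 days after implantation and was given for 6 days at 12 h per day, with the mice housed singly in light-controlled cages, whereas the dark groups received no blue light. The mice were adults of both sexes, and the sex of each mouse is not given in the labels.

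Mast cells arise from blood progenitors that keep the receptor tyrosine kinase KIT, whose ligand is stem cell factor. GATA2 is the GATA factor that mast cells depend on, GATA1 acts with it during maturation and is best known from red cells and megakaryocytes, TAL1 is the basic helix-loop-helix partner of GATA factors, and MITF is the factor that drives many granule and receptor genes in mast cells and pigment genes in melanocytes. The high-affinity IgE receptor FceRI is built from an alpha chain (Fcer1a), which binds IgE, a beta chain (Ms4a2), which amplifies the signal, and gamma chains (Fcer1g), which many other leukocytes use as well. IL1RL1, also called ST2, is the receptor for the alarmin IL-33, CD200R3 is an activating receptor of mast cells and basophils, and MRGPRB1 belongs to the family of MRGPR receptors.

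The 12 libraries were of 2 kinds, which are kept apart in what follows. Totals of 2211234 to 2946792 counts were found in 10 of them. The third P815-IFNG tumor in light, with 41473500 counts, and the third in the dark, with 42338096 counts, gave what are called the deep libraries. Both belong to P815-IFNG, so in any comparison of the lines the kind of library and the line are partly confounded, whereas light and dark each have 1 deep library within P815-IFNG. The mitochondrial gene mt-Nd6, which lies opposite the other mitochondrial protein-coding genes, held 3.56% to 3.85% of their counts in the deep libraries and 29.0% to 47.9% in the others. By the study's methods the reads were counted by HTSeq with default parameters, and the default of HTSeq counts by strand. Whether the strand setting was in fact the same for both kinds of library was not tested. If it was not, a CPM does not measure the same thing in both, including for genes with a neighbor on the other strand. Irak4, for example, which shares exon bases with Twf1 on the other strand, had 152 to 304 CPM in the 10 libraries and 18.9 to 22.7 CPM in the deep ones. The 2 kinds also differed for genes without an annotated exon overlap of at least 100 bases on the other strand. Gp1ba had 21.1 to 59.0 CPM in the 10 libraries and 0.579 to 1.14 CPM in the deep ones. Srgn had 71.6 to 199 CPM in the 10 libraries and 1221 to 1908 CPM in the deep ones. Levels are given as CPM, the usual scale that corrects counts for the size of the library, on nuclear counts and with the TMM method. A count of 3 corresponded to 1.05 to 1.39 CPM in the 10 libraries and to 0.0744 to 0.0774 CPM in the deep ones, and this floor covers counting error only.

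All 10 members were matched to 1 gene each of the GENCODE M21 annotation of GRCm38, the assembly that mm10 names. Gata2 lies on chromosome 6 from 88193891 to 88207032, Mitf on chromosome 6 from 97807052 to 98021349, Tal1 on chromosome 4 from 115056426 to 115071755 and Gata1 on chromosome X from 7959260 to 7978071. Kit lies on chromosome 5 from 75574916 to 75656722, Il1rl1 and Fcer1a on chromosome 1 from 40429570 to 40465415 and from 173221284 to 173227214, Ms4a2 on chromosome 19 from 11615523 to 11623719, Cd200r3 on chromosome 16 from 44943678 to 44981380 and Mrgprb1 on chromosome 7 from 48444113 to 48456342. No member shared an exon base with another annotated gene on either strand, and the single overlap was an uncounted pseudogene within Mitf that shares 0 exon bases with it. The counts are per gene, so the several start sites of Mitf and the pair of start sites of Il1rl1, which give different protein forms, were not separated.

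The promoters of the members differed in whether they hold the letters that GATA factors are known to bind. A window of 300 bases, from 250 before to 50 after each RefSeq start site on GRCm38.p6, was searched on both strands for AGATAA and TGATAA. At least 1 of these was found in 6 of the 10 members, namely Tal1, Mitf, Il1rl1, Fcer1a, Ms4a2 and Cd200r3, and in 8 of their 16 windows, against 18.6% of 32851 mouse windows. The windows of Kit, Gata1, Gata2 and Mrgprb1 held none. The letters CANNTG, the E-box that basic helix-loop-helix proteins such as TAL1 and MITF bind, were in 11 of the 16 windows against 72.3% of all windows, and its form CACGTG, which CANNTG includes, was in 0 of 16 against 7.15%. The 250 bases before the start are shown for 5 members, because they set the abundant Gata2, without a match, beside receptor genes that had 1 to 3 matches in their windows and whose levels ran from 44.2 CPM, for Il1rl1 in 1 tumor, to almost no count. They are written 5′ to 3′ on the strand of the gene, with AGATAA or TGATAA, or the same letters of the other strand (TTATCT or TTATCA), in capitals.
Gata2, chr6:88193641-88193890, strand +: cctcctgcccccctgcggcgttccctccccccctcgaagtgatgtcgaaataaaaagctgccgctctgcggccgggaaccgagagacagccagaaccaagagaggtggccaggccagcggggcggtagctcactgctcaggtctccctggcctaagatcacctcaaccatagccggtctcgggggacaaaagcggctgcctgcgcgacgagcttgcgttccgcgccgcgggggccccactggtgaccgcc
Il1rl1, chr1:40429320-40429569, strand +: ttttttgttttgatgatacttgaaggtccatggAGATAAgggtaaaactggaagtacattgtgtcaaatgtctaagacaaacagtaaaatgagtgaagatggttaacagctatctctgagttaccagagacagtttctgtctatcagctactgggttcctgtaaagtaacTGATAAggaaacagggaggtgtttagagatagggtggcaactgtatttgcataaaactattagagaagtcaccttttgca
Cd200r3, chr16:44943428-44943677, strand +: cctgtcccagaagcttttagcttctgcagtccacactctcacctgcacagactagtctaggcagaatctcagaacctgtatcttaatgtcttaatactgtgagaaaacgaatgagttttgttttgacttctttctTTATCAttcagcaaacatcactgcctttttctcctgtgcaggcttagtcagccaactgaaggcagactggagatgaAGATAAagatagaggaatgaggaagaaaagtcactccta
Ms4a2, chr19:11623720-11623969, strand -: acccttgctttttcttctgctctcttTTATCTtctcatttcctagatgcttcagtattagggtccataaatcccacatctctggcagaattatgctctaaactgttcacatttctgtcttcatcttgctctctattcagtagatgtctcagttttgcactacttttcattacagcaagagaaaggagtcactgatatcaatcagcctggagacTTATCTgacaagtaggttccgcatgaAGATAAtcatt
Fcer1a, chr1:173227230-173227479, strand -: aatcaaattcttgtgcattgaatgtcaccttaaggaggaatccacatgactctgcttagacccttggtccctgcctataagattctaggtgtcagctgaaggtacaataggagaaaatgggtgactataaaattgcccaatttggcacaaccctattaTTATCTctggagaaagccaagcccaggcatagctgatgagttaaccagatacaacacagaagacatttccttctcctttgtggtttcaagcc
In Ms4a2 the 3 matches began 224, 37 and 11 bases before the start, and in Cd200r3 the 2 matches began 115 and 39 bases before it. The first window of Il1rl1 had 2 matches, at 217 and 80 bases, and Fcer1a had 1, at 92 bases. A match of letters is a description of the sequence and not a measured binding site.

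Compared per kilobase of annotated exons, which is the scale on which different genes can be set side by side, the members spanned a wide range. Over the 10 libraries Gata2 had 89.1 ± 14.8 CPM per kb (SD, n = 10) and Kit 46.5 ± 9.88. Tal1 followed with 9.88 ± 1.69, then Gata1 with 4.69 ± 2.89, Mitf with 4.21 ± 0.939 and Il1rl1 with 2.67 ± 1.85 CPM per kb. The last 3 of these lay within each other's spread, so their order is not fixed by these data. Cd200r3 had 0.266 ± 0.265 CPM per kb, and Fcer1a, Ms4a2 and Mrgprb1 had means from 0.00741 to 0.0520, which rest on 1 to 4 counts in all over the 10 libraries. The deep libraries gave the same order for Gata2, Kit and Tal1, with Gata2 at 125 to 143 and Kit at 69.1 to 74.7 CPM per kb, but there Mitf (14.4 to 15.3) stood above Gata1 (1.74 to 1.97). The mast cell label of the tumors was checked with a list of granule genes. Cpa3, Cma1, Tph1, Ctsg, Srgn and Ndst2 were above 50 CPM in every library, and Mcpt2 and Mcpt4 were lower but detected in each. The tryptase genes Tpsb2 (0 to 5.27 CPM) and Tpsab1 (0 to 3.10 CPM), the histamine synthesis gene Hdc (0 to 6.03 CPM) and Mcpt1 (0 to 1.34 CPM) were at or near 0 in the 10 libraries. Cpa3, a mast cell carboxypeptidase, ranged from 675 to 1100 CPM in the 10 libraries and was at 7570 and 5469 CPM in the deep light and dark ones. The 12 granule genes counted summed to 1885 to 3051 CPM in the 10 libraries. The basophil list summed to 538 to 1000.4 CPM, of which Cd63, a gene not limited to basophils, made up 486 to 967 CPM. Of its protease genes, Prss34 was at 0 in all 12 libraries and Mcpt8 was at 1.61 to 10.4 CPM in the 10 libraries and 14.8 and 19.98 CPM in the deep ones, and the eosinophil list summed to 1.44 to 19.8 CPM.

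**Figure D1:**
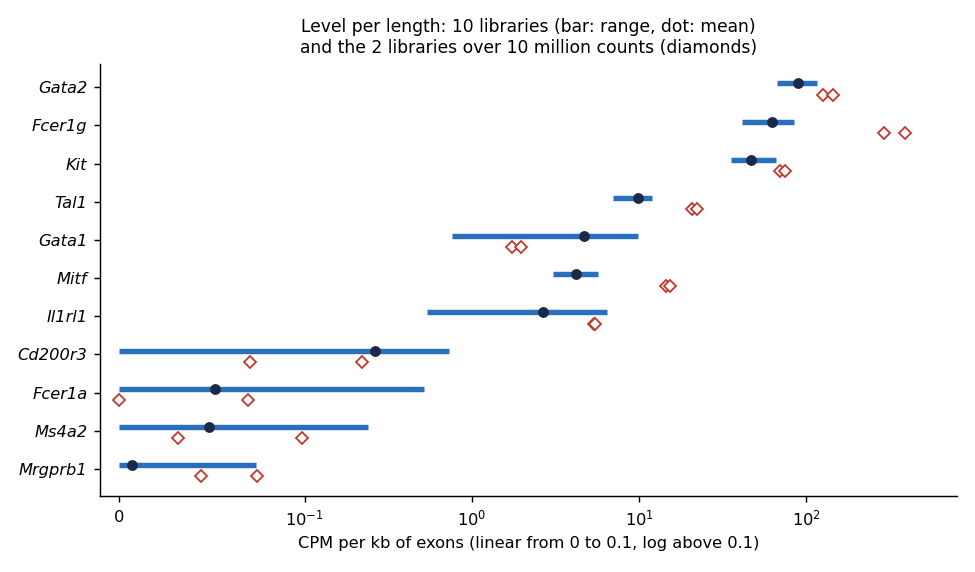
Level of each member and of the FceRI gamma chain gene Fcer1g, in CPM per kb of exons, on a horizontal axis that is linear from 0 to 0.1 and logarithmic above 0.1. Bars give the range and dots the mean of the 10 libraries, and diamonds are the 2 deep libraries. Gata2 and Kit lead the members, and Fcer1a, Ms4a2 and Mrgprb1 lie at the left end, far from Fcer1g at a mean of 62.1.

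Gata2, the GATA factor of mast cells, was among the abundant transcripts of these tumors. In the P815-IFNG light tumors it had 361, 379 and, in the deep library, 676 CPM, and in the P815-IFNG dark tumors 467, 411 and 775 CPM. The P815-M tumors had 508, 532 and 476 CPM in light and 622, 517 and 535 CPM in the dark. Its percentile in CPM, without correction for length, ran from 97.7 to 99.4 among the 18804 genes tested. The group means were 472 ± 177 (P815-IFNG light), 551 ± 196 (P815-IFNG dark), 506 ± 28.4 (P815-M light) and 558 ± 56.1 CPM (P815-M dark; SD, n = 3 each). The large SDs of the P815-IFNG groups come from the deep libraries, since without them the means were 370 ± 12.7 and 439 ± 39.5 CPM (n = 2 each). Within the 10 libraries every P815-IFNG tumor had less Gata2 than every P815-M tumor, whereas with the deep libraries the lines overlapped. The share of all genes with such a separation in the 10 libraries was not counted.

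Kit, the receptor for stem cell factor, had a like pattern over the tumors. It had 336, 317 and 666 CPM in the P815-IFNG light tumors and 362, 344 and 616 CPM in the P815-IFNG dark tumors, the last value of each being the deep library. The P815-M tumors had 371, 440 and 408 CPM in light and 585, 449 and 530 CPM in the dark, so that the light and dark groups of P815-M did not overlap. The same held for 18.1% of all genes tested. Kit and Gata2 kept a narrow ratio to each other in single libraries, a measure that does not depend on the scaling of the libraries. Kit counts were 0.729 to 0.991 times the Gata2 counts in the 12 libraries, and 0.795 and 0.985 times in the deep ones. Kit, as a share of Kit and Gata2 counts together, was 47.8% ± 2.07 in the light tumors of P815-IFNG and 44.5% ± 0.981 in its dark tumors, and for P815-M it was 44.5% ± 2.10 in light and 48.2% ± 1.67 in the dark (SD, n = 3 each). Over the 10 libraries, log2(CPM + 1) of Kit and Gata2 had Pearson's r = 0.89 and Spearman's rho = 0.96 (n = 10). These points share the division into lines and the library scaling, so the value is a description.

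**Figure D2:**
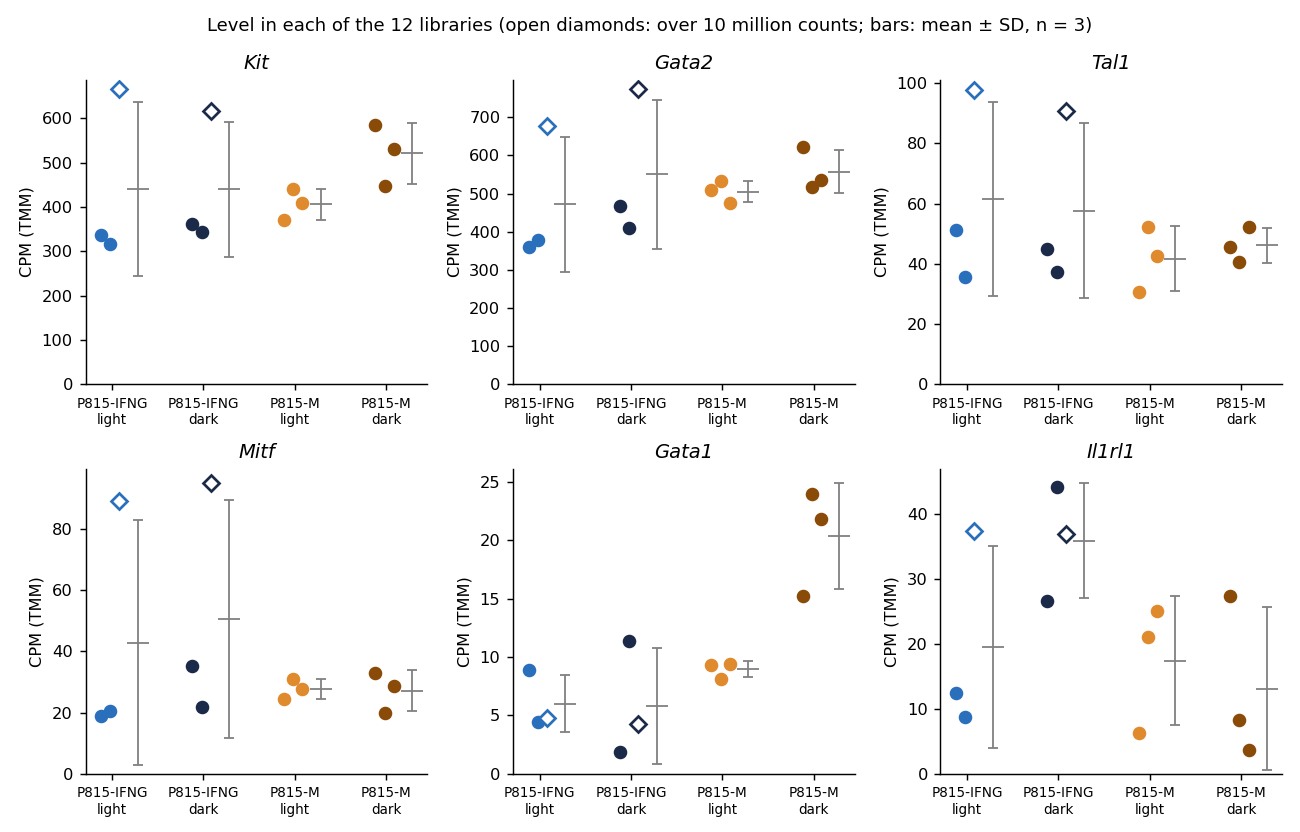
CPM in each of the 12 libraries for 6 members, by group, with filled circles for the 10 libraries and open diamonds for the deep libraries. Grey bars are mean ± SD over the 3 libraries of a group. The diamonds stand above the circles of P815-IFNG for Kit, Gata2, Tal1 and Mitf, and Gata1 is highest in the P815-M dark tumors at 15.2 to 24.0 CPM.

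Tal1 was nearly even across the 4 groups apart from the deep libraries. It had 51.1 and 35.6 CPM in light and 45.0 and 37.2 in the dark for P815-IFNG, and 30.6, 52.2 and 42.5 in light and 45.7, 40.6 and 52.3 in the dark for P815-M, against 97.6 and 90.8 CPM in the deep libraries. Mitf had 18.9 and 20.5 CPM in light and 35.1 and 21.8 in the dark for P815-IFNG, and 24.4, 31.1 and 27.7 in light and 32.8, 19.8 and 28.8 in the dark for P815-M, against 89.2 and 94.99 CPM in the deep libraries. For both genes the groups overlapped within the 10 libraries, except that the 2 P815-IFNG light values of Mitf lay under all values of P815-M light and P815-IFNG dark. How many of all genes separate in this way in the 10 libraries was not counted. Melanocyte genes, the other known setting of Mitf, summed to 32.9 to 89.1 CPM in the 10 libraries and 9.40 and 6.65 CPM in the deep ones, with Dct at 0 in all 12 libraries. Pmel, which overlaps the exons of Dgka on the other strand by 105 bases, carried most of this sum with 30.1 to 88.6 CPM in the 10 libraries.

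The deep libraries did not raise all members alike. Their mean was 3.83 times that of the other 4 P815-IFNG libraries for Mitf, 2.23 times for Tal1, 1.89 times for Kit, 1.79 times for Gata2 and 1.61 times for Il1rl1. It was 0.682 times for Gata1 and 0.549 times for Cd200r3. Over 10020 genes with a mean of at least 10 CPM in the 10 libraries the median of this ratio was 1.18, with 5% of genes under 0.0314 and 5% above 3.98. The ratio of Mitf was at the 94.3rd percentile of these genes and that of Gata1 at the 33.0th. Whether the tumors or the libraries differ cannot be told apart, since 1 mouse gave 1 library.

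Gata1 was the transcription factor member with the clearest spread between groups. It had 15.2, 24.0 and 21.8 CPM in the P815-M dark tumors, from 39, 46 and 53 counts. The P815-M light tumors had 9.34, 8.14 and 9.39 CPM, the P815-IFNG light tumors 8.85, 4.39 and 4.79 CPM and the P815-IFNG dark tumors 1.86, 11.4 and 4.24 CPM. All P815-M dark tumors stood above all other tumors. The share of all genes with 1 group above all others was not counted. For comparison, 18.1% of all genes did not overlap between P815-M light and dark, and 21.2% between the lines in the dark. The other 3 groups had means of 8.96 ± 0.709 (P815-M light), 6.01 ± 2.47 (P815-IFNG light) and 5.83 ± 4.96 CPM (P815-IFNG dark), against 20.3 ± 4.55 in P815-M dark (SD, n = 3 each). The share of Gata1 in the counts of Gata1 and Gata2 together, free of library scaling, was 2.39%, 4.43% and 3.92% in P815-M dark. It was 1.51% to 1.94% in P815-M light, 0.704% to 2.39% in P815-IFNG light and 1.21% ± 1.29 in P815-IFNG dark (SD, n = 3), so on this measure P815-M dark overlapped both P815-IFNG groups but not P815-M light. The lowest of the 12 values, 0.397% in the first P815-IFNG dark library, had a 95% Wilson interval of 0.182% to 0.864%, which covers counting error only. The difference of the log2 ratio of Gata1 to Gata2 between the lines, averaged over light and dark, was -1.27 (P815-IFNG minus P815-M, exact permutation test within light and dark, two-sided p = 0.06, smallest possible p = 0.005), and -0.89 with p = 0.16 in the 10 libraries.

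**Figure D3:**
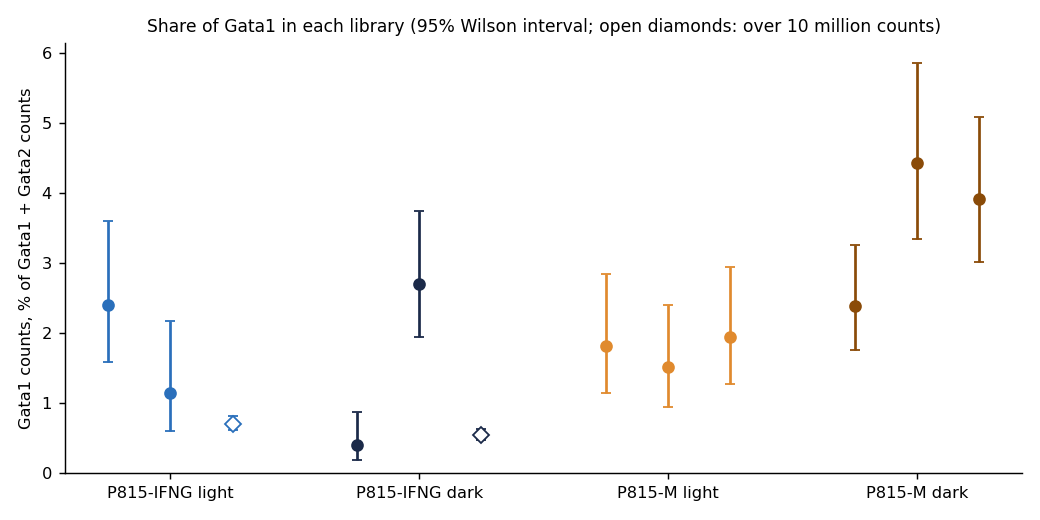
Gata1 counts as a percentage of Gata1 plus Gata2 counts in each library, with 95% Wilson intervals, by group. Filled circles are the 10 libraries and open diamonds the deep libraries. The 3 P815-M dark tumors lie at 2.39% to 4.43%, and the P815-M light tumors at 1.51% to 1.94%.

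Genes of the red cell lineage, in which GATA1 is also expressed, were read beside Gata1. Of the erythroid genes listed, Slc4a1 and Hba-a2 had 0 counts in all 12 libraries. The summed level of the list was 28.1 to 45.3 CPM in P815-M dark, 19.7 to 33.1 in P815-M light, 13.9 to 18.5 in P815-IFNG light and 18.1 to 45.9 in P815-IFNG dark. In both P815-IFNG groups the lowest sum was that of the deep library. Alas2 of this list overlaps the exons of Apex2 on the other strand by 311 bases. Its level was 4.69 to 11.5 CPM in the 10 libraries and 0.301 to 0.357 CPM in the deep ones. Epor, the erythropoietin receptor gene, made up most of the sum in P815-M dark with 18.3, 31.3 and 27.6 CPM, against 11.9, 10.5 and 17.0 in P815-M light, while the globin Hbb-bs was at 0.521 to 1.56 CPM in P815-M dark. The megakaryocyte list summed to 113 to 184 CPM in P815-M dark and 141 to 202 in P815-M light. The part of these lists in the Gata1 values was not tested. In such bulk samples, fewer cells of a type and less RNA per cell cannot be told apart.

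The 3 chains of the IgE receptor were far apart in level. Fcer1a, the IgE-binding alpha chain, had 0 counts in 10 of 12 libraries, 1 count in the first P815-M light library and 3 counts in the deep P815-IFNG light library. Ms4a2, the beta chain, had 1 and 2 counts in the first 2 P815-IFNG dark libraries and 1 in the first P815-M dark library, 12 and 4 in the deep light and dark libraries, and 0 in the other 7. For the pooled values that follow, counts were divided by all counts, with the mitochondrial rows and without TMM, unlike the other CPM given. Pooled, Fcer1a had 1 count in 24814082 over the 10 libraries (0.0403 CPM, exact 95% Poisson interval 0.00102 to 0.225) and 3 counts in 83811596 over the deep ones (0.0358 CPM, 0.00738 to 0.105). Ms4a2 had 4 counts (0.161 CPM, 0.0439 to 0.413) and 16 counts (0.191 CPM, 0.109 to 0.310). These intervals cover counting error only, and no fold change is given, because both genes were at or under the floor of 3 counts in at least 10 libraries. Fcer1g, the gamma chain, was in contrast detected in all libraries, with 35.8 to 74.2 CPM in the 10 libraries and 339 and 256 CPM in the deep light and dark ones. The macrophage list, whose cells also use the gamma chain, summed to 631 to 1343 CPM in the 10 libraries and 560 and 407 CPM in the deep light and dark ones, and its part in Fcer1g was not tested. Csf1r of this list overlaps the exons of Hmgxb3 on the other strand by 873 bases. It had 224 to 348 CPM in the 10 libraries and 39.6 to 42.5 CPM in the deep ones.

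**Figure D4:**
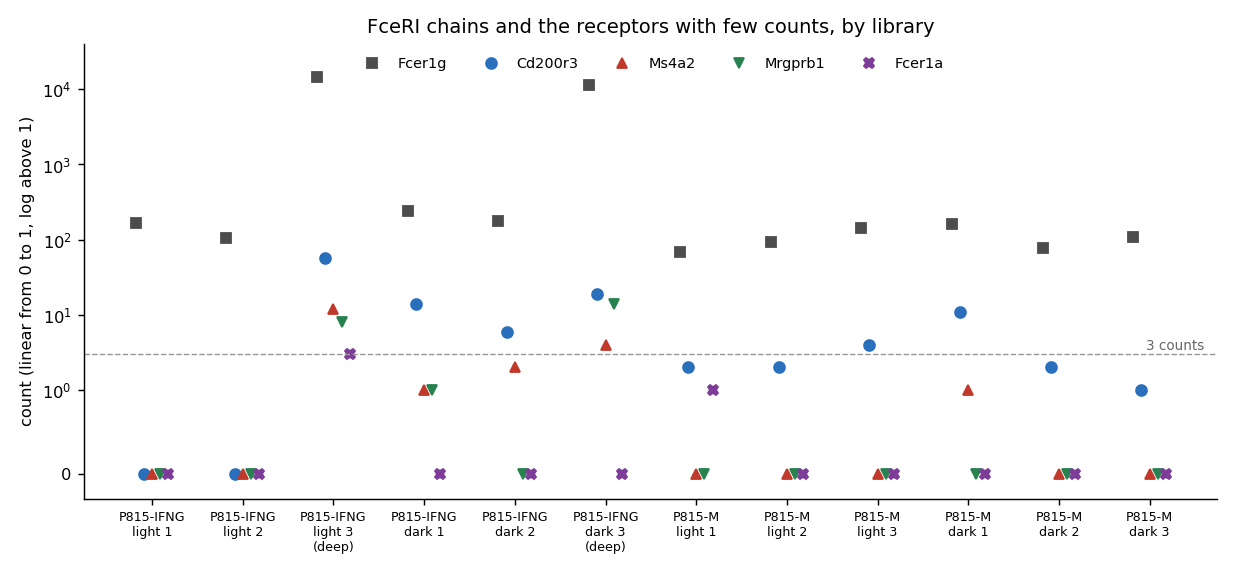
Counts of the FceRI chain genes Fcer1g, Ms4a2 and Fcer1a and of Cd200r3 and Mrgprb1 in each library, on an axis that is linear from 0 to 1 and logarithmic above 1, with a dashed line at 3 counts. Fcer1g is far above the line in every library, while Fcer1a has at most 3 and Ms4a2 at most 12.

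Il1rl1, the IL-33 receptor gene, varied most over the 10 libraries among the members that were detected in all libraries, together with Gata1. It had 12.5 and 8.78 CPM in light and 26.7 and 44.2 in the dark for P815-IFNG, and 6.23, 21.1 and 25.0 in light and 27.3, 8.33 and 3.70 in the dark for P815-M, against 37.5 and 36.9 CPM in the deep light and dark libraries. Its coefficient of variation over the 10 libraries was 69.3%, near that of Gata1 (61.6%), against 16.6% for Gata2, 17.1% for Tal1, 21.3% for Kit and 22.3% for Mitf. With the deep libraries included it was 63.4%, against 67.3% for Gata1 and 70.8% for Mitf. The P815-IFNG dark tumors were all above 26 CPM, whereas the P815-M tumors spread from 3.70 to 27.3 in both light conditions. The endothelial list, whose cells can also carry this receptor, summed to 87.5 and 121 CPM in the first 2 P815-IFNG dark libraries, to 69.5 and 92.2 CPM in the first 2 P815-M dark libraries and to 20.2 CPM in the third, to 32.7 to 47.0 in P815-M light and to 38.5 and 40.2 in the first 2 P815-IFNG light libraries. The sum and Il1rl1 were both lowest in the third P815-M dark library, but the second had a sum of 92.2 CPM with only 8.33 CPM of Il1rl1. The list for group 2 innate lymphoid and regulatory T cells, other users of the receptor, summed to 208 to 324 CPM in the 10 libraries, and its gene Areg was at 0 in all of these. Foxp3 of this list has an exon overlap of at least 100 bases with genes of the other strand. It had 91.2 to 219 CPM in the 10 libraries and 10.4 and 14.1 CPM in the deep light and dark ones. The T cell list, in contrast, summed to only 1.46 to 19.2 CPM in the 10 libraries. The part of these cells in the Il1rl1 values was not tested. Il33, the ligand gene, had 19.2 to 56.6 CPM in the 10 libraries, and the co-receptor gene Il1rap 1.46 to 7.29 CPM.

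Cd200r3 and Mrgprb1 were scarce. Cd200r3 had 14, 6 and 19 counts in P815-IFNG dark (4.34, 2.01 and 0.424 CPM, the last in the deep library) and 0, 0 and 57 in P815-IFNG light. It had 2, 2 and 4 counts in P815-M light and 11, 2 and 1 in P815-M dark, so 6 of the 10 libraries were at or under the floor with 1 to 2 counts or none. Mrgprb1 had 1 count in the 10 libraries, in P815-IFNG dark, and 8 and 14 counts in the deep libraries. The libraries with the most Cd200r3 were also high in Mcpt4, a protease gene of connective tissue mast cells that was singled out after its values were seen. Mcpt4 had 18.9 and 9.05 CPM in the first 2 P815-IFNG dark libraries and 8.98 CPM in the first P815-M dark library. It had 0.804 and 0.976 CPM in the P815-IFNG light libraries without Cd200r3 counts. But it also had 13.4 CPM in the third P815-M light library, which had 4 counts of Cd200r3. The second P815-M light and dark libraries, with 2 counts of Cd200r3 each, had 5.75 and 7.29 CPM of Mcpt4. Cma1, another protease gene of the granule list, went the other way in P815-IFNG. It had 545 and 414 CPM in the light libraries without Cd200r3 counts and 246 and 288 CPM in the first 2 dark libraries.

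The design sets tumors with the light-controlled module against control tumors, each in light and in the dark. No member passed the test in any of the 7 comparisons (edgeR quasi-likelihood test, called at a Benjamini-Hochberg adjusted p of at most 0.05 and a log2 fold change of at least 1 in size). Of the members, 9 entered the test, because Fcer1a missed the minimum of 10 counts over all libraries. Ms4a2 and Mrgprb1 entered through the deep libraries. Called genes among the 18804 tested made up 0.016% for the lines in light, 0.0106% for the lines in the dark and 0.0904% for the lines averaged over light and dark. They made up 0% for light against dark in P815-IFNG, 0% for the same in P815-M, 0% for light averaged over the lines and 0% for the difference between the lines in the light effect. With so few genes called at all, a count of 0 members was near this background. The tool DESeq2 also called 0 members in each comparison. At an unadjusted p under 0.05, edgeR and DESeq2 each had 1 member for the lines in the dark and 1 for the lines averaged, both times Gata1, and 0 in the other 5 comparisons. Over all genes, 6.86% and 18.4% were under this p in edgeR and 6.92% and 16.7% in DESeq2, so 1 of 9 members was near or under the share over all genes.

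Gata1 had the lowest unadjusted p of the members for the lines in the dark and averaged, but did not pass the adjustment over all genes. In the dark its log2 fold change was -1.82 (SE 0.573, 95% interval -3.08 to -0.564, edgeR adjusted p = 0.604), and averaged over light and dark it was -1.20 (SE 0.405, -2.09 to -0.316, adjusted p = 0.247). In light it was -0.59 (adjusted p = 0.701). The median over all genes was 0.27 for the averaged comparison and 0.33 in the dark with all 12 libraries. In the 10 libraries it was 0.0387 and 0.0537. The distance of Gata1 from all genes was thus larger than its own value with all 12 libraries, but hardly so without the deep ones. Taken as a single value, log2(CPM + 1) of Gata1 differed between the lines by -1.22 averaged over light and dark (exact permutation test within light and dark, two-sided p = 0.01, unadjusted; smallest possible 0.005), and the dark groups by -1.88 with p = 0.1, the smallest that 3 against 3 allow (exact permutation test). In P815-M, light against dark, the log2 fold change was -1.18 (SE 0.569, -2.43 to 0.0675, adjusted p = 1). In P815-IFNG it was 0.05 (SE 0.569, adjusted p = 1), and the test of the difference between the lines in the light effect gave 1.23 (SE 0.804, adjusted p = 1), so these effects were not shown to differ. Gata1 passed in 3 alternative fits. In the order given next, these called 2.89%, 3.16% and 1.55% of all genes tested, against 0.0106%, 0.0904% and 0% in the main fit. With ComBat-seq, set here to adjust the counts for the deep libraries, it was -1.72 in the dark (adjusted p = 0.00302) and -1.03 averaged over light and dark (adjusted p = 0.0116), and with only the P815-M libraries fitted, light against dark was -1.19 (adjusted p = 0.0463). ComBat-seq was also a step of the study's own processing, for a batch that its methods do not name. Without the deep libraries the adjusted p was 0.0969, 0.134 and 0.248 in these comparisons.

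**Figure D5:**
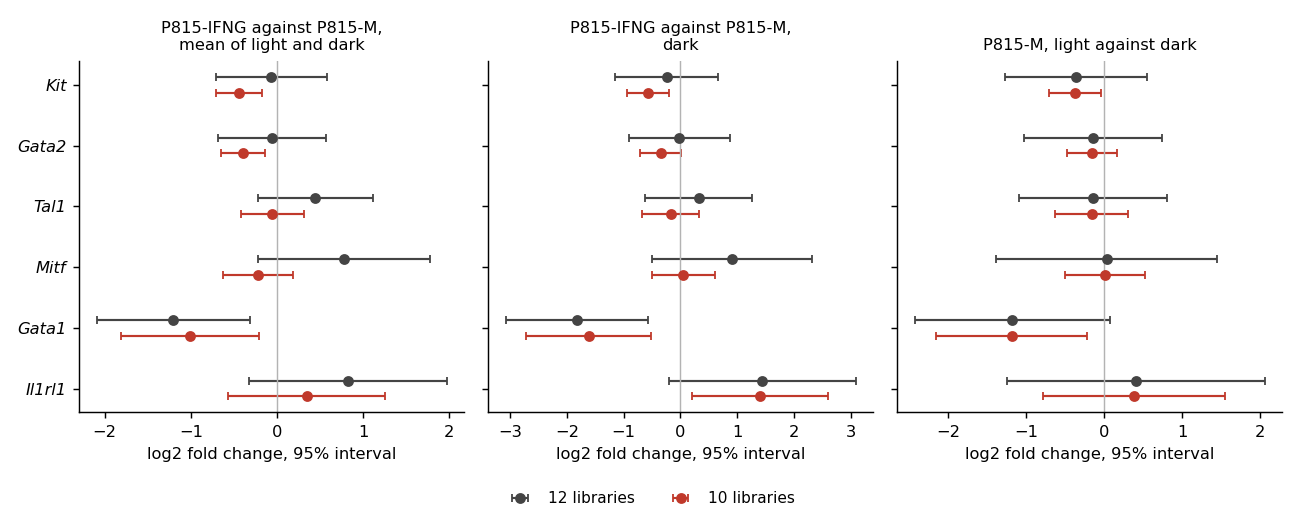
Log2 fold changes of 6 members with 95% intervals in 3 comparisons, from all 12 libraries (grey) and from the 10 libraries without the deep ones (red). The intervals of Kit, Gata2, Tal1 and Mitf narrow without the deep libraries, and Gata1 lies at -1.20 and -1.01 for the averaged lines.

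Kit and Gata2 depended on the deep libraries. With all 12 libraries the log2 fold change between the lines, averaged over light and dark, was -0.06 for Kit (SE 0.292, 95% interval -0.704 to 0.576, edgeR adjusted p = 0.905) and -0.06 for Gata2 (SE 0.286, -0.685 to 0.568, adjusted p = 0.912). With the 10 libraries it was -0.44 for Kit (SE 0.124, -0.702 to -0.174, adjusted p = 0.0537) and -0.40 for Gata2 (SE 0.119, -0.651 to -0.144, adjusted p = 0.0652), under the minimum fold change. The adjusted p over these 10 libraries was 0.0438 and 0.0511 with a stricter filter on low counts (filterByExpr), and 0.00628 and 0.00858 with DESeq2, which were chosen after seeing the data. In the 10 libraries all 4 P815-IFNG tumors were under all 6 P815-M tumors for both genes within each light condition (exact permutation test, two-sided p = 0.01 each, the smallest possible with these libraries). The share of all genes that separated in this way in the 10 libraries was not counted. There, 20.8% of all genes had an unadjusted edgeR p under 0.05 for the averaged lines, so the separation is not read as particular to Kit and Gata2. With all 12 libraries the same exact permutation test gave p = 0.58 for Kit and 0.575 for Gata2.

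Tal1 and Mitf had no direction that held in both kinds of libraries. Their log2 fold changes between the lines, averaged, were 0.44 (SE 0.305, adjusted p = 0.393) and 0.78 (SE 0.453, adjusted p = 0.335) with all 12 libraries, and -0.055 and -0.22 with the 10 libraries. Il1rl1 had 1.45 between the lines in the dark (SE 0.752, 95% interval -0.202 to 3.09, adjusted p = 0.604) and 1.40 with the 10 libraries (adjusted p = 0.178). Averaged over light and dark it had 0.82 (SE 0.525, adjusted p = 0.369).

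In the 10 libraries 7 members could be tested, and 0 of them were called by edgeR. At an unadjusted p under 0.05 there were 2, 2, 2, 3, 2, 3 and 1 of the 7, in the order light against dark within P815-IFNG and within P815-M, lines in light, lines in the dark, difference in the light effect, lines averaged and light averaged. Over all genes the shares under this p were 10.7%, 14%, 10.3%, 19.5%, 7.7%, 20.8% and 16.9%, and with 7 members a count of 1 to 3 is not read as more than that. In the same order, 0.0059%, 0.927%, 0.23%, 2.19%, 0.0118%, 1.49% and 0.454% of 16944 genes were called. Leaving out the deep libraries thus raised the calls over all genes from 17 to 252 for the averaged lines, without a member among them.

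Light was compared with dark within each line, since P815-M tumors show blue light without the cytokines. Averaged over the lines the log2 fold change of light against dark was -0.18 for Kit (SE 0.292), -0.18 for Gata2 (SE 0.286) and -0.56 for Gata1 (SE 0.402), each with adjusted p = 1 in edgeR. In P815-M, Kit and Gata1 were the members whose light and dark groups did not overlap, with 18.1% of all genes tested doing so, and both had their lower values in light (exact permutation test, two-sided p = 0.1 each, the smallest that 3 against 3 allow). In P815-IFNG no member had groups that did not overlap, with 3.75% of all genes doing so. Between the lines, 0 members did so in light (16.9% of genes) and Gata1 did so in the dark (21.2% of genes). For Il1rl1 light against dark in P815-IFNG gave -0.84 (SE 0.730, edgeR adjusted p = 1), and -1.73 (adjusted p = 0.386) with the 10 libraries, in which only 2 tumors stand in each of these groups. The difference between the lines in the light effect was -1.25 for Il1rl1 (SE 1.05, adjusted p = 1).

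The other genes of the pathways behaved alike, in that none was called with all 12 libraries. Of 28 genes of KIT and FceRI signalling tested, 0 were called for the averaged lines, and their median log2 fold change was 0.32, against 0.27 over all genes. Lat2, an adaptor of the IgE receptor, and Grb2, an adaptor of KIT, had the largest means of this list, 207 and 181 CPM. Fcer1g (log2 fold change 1.53, SE 0.522) and Lyn (1.30), the kinase that acts on the receptor's chains, had the largest differences between the lines, with an edgeR adjusted p of 0.247 each. Without the deep libraries these were 0.35 and 0.33 (adjusted p = 0.292 and 0.295). Lat2 and Lyn have exon overlaps of at least 100 bases with a gene of the other strand. Kitl, which encodes stem cell factor, had 0.519 to 5.36 CPM in the 10 libraries.

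Of 18 partners of GATA factors and TAL1, 0 were called in either direction, and their median was 0.29. Ldb1, the bridging protein of the GATA and TAL1 complex, had a mean of 162 CPM, and Ikzf1, the Ikaros factor, 138 CPM. Myb (1.05, SE 0.393) and Runx1 (0.66, SE 0.243) had the largest averaged differences between the lines, with an edgeR adjusted p of 0.247 each, and 0.27 and 0.33 without the deep libraries (adjusted p = 0.293 and 0.187). Ldb1, Myb and Runx1 have exon overlaps with a gene of the other strand. In the MITF family list, 0 of 5 were called. Kars and Hint1, which bind or signal to MITF in mast cells, had means of 124 and 90.7 CPM, and Hint1 (1.36, SE 0.549) and Tfe3 (0.49), a relative of MITF, had the largest differences, with adjusted p = 0.250 and 0.255 and values of 0.01 and 0.35 in the 10 libraries.

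In the IL-33 pathway 0 of 11 genes tested were called, with a median of -0.04. Irak4 (198 CPM, with an exon overlap on the other strand) and Irak1 (95.2 CPM), kinases of the receptor, had the largest means. Il13, a cytokine that mast cells release, had 6.83 to 41.2 CPM in the 10 libraries and 2.99 to 4.05 CPM in the deep ones, and its log2 fold change between the lines was -0.85 (SE 0.543, edgeR adjusted p = 0.368), and -0.36 (adjusted p = 0.565) in the 10 libraries. That of Traf6 was 0.83 (SE 0.326, adjusted p = 0.249), and 0.29 (adjusted p = 0.475) in the 10 libraries. Among the other MRGPR genes Mrgpre, with 14.5 to 23.9 CPM, and Mrgprf, with 1.95 to 7.66 CPM, were the ones tested, whereas Mrgprb2, the receptor for basic secretagogues, had 1 count in all 12 libraries and Mrgprb3, Mrgprb8 and Mrgpra1 had 0.

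Among the other CD200 receptors, 0 of 4 genes on the list were called, with a median of -0.74. Cd200r1, the inhibitory receptor, had 18.2, 20.6 and 26.4 CPM in P815-M light and 20.3, 12.0 and 15.2 in P815-M dark. P815-IFNG had 9.25 and 8.78 CPM in light and 11.5 and 11.1 in the dark, and 7.82 and 4.09 CPM in the deep light and dark libraries. All P815-IFNG tumors were thus under all P815-M tumors, with a log2 fold change of -1.10 (SE 0.298, edgeR adjusted p = 0.237) with 12 libraries and -0.88 (SE 0.223, adjusted p = 0.0332) with the 10 libraries, the latter under the minimum fold change. How many of all genes separate the lines in this way was not counted. Cd200r4, an activating receptor, had -0.39 (SE 0.346, adjusted p = 0.498), and -0.76 (adjusted p = 0.178) in the 10 libraries.

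Of 29 tested genes of other surface receptors, 0 were called with all 12 libraries, and their median was 0.25. Itgb7, a subunit of the gut-homing integrin, and Csf2rb, the shared chain of the IL-3, IL-5 and GM-CSF receptors, had the largest means in CPM, 475 and 445. Itgae, the integrin subunit that pairs with Itgb7, had 29.6, 32.1 and 29.1 CPM in P815-M light and 44.9, 19.3 and 26.3 in P815-M dark, against 4.42, 11.7 and 9.33 in P815-IFNG light and 8.07, 11.4 and 2.61 in P815-IFNG dark, the last of each being the deep library. The lines did not overlap, with a log2 fold change of -1.96 (SE 0.388, edgeR adjusted p = 0.146), and the share of all genes that do so was not counted. In the 10 libraries Itgae fell by 1.79 on the log2 scale (SE 0.283, adjusted p = 0.00251) and was the 1 related gene called for the averaged lines. Itga4, another partner of Itgb7, had 1.57 (SE 0.364, adjusted p = 0.195), and 0.96 (adjusted p = 0.00412) in the 10 libraries, and has an exon overlap on the other strand. In the list of mast cell lipid and amine enzymes 0 of 9 were called, with a median of 0.38. Alox5ap (89.9 CPM) and Hpgds (25.3 CPM), of the leukotriene and prostaglandin D2 pathways, had the largest means, and Ptgs2 (1.52, SE 0.654, adjusted p = 0.261) and Pla2g4a (1.37, SE 0.307, adjusted p = 0.190) the largest differences between the lines. In the 10 libraries these were 0.53 (adjusted p = 0.607) and 0.88 (adjusted p = 0.0213), the latter under the minimum fold change.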

How the data were processed

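Total RNA of whole tumors was sequenced with stranded mRNA libraries. Per the study's methods and the submitters' processing notes, the authors trimmed reads with fastp, aligned them to mm10 with STAR 2.7.9a, counted reads per gene with HTSeq 0.13.5 and tested with DESeq2 1.32.0. By the methods they also adjusted the counts for batch with ComBat-seq, without naming the batch, and used IHW with DESeq2. The deposited values were whole, unnormalized counts per gene, 1 table per library. The methods give default parameters for HTSeq, whose default counts by strand. After removal of 13 mitochondrial rows, genes with at least 10 counts over the 12 libraries were kept. All libraries and 4 group means were fitted with edgeR 4.0.16 (quasi-likelihood, TMM, R 4.3.3), with limma 3.58.1 loaded by it. A gene was called at a Benjamini-Hochberg adjusted p of at most 0.05 over all genes and a log2 fold change of at least 1. Single values were tested by exact permutation on log2(CPM + 1), where the pseudocount of 1 understates changes of low genes. DESeq2 1.42.0 and ComBat-seq (sva 3.50.0), the latter with the deep libraries taken as the batch, served as alternatives. Python 3.11.15, pandas 2.3.3, numpy 2.4.6, scipy 1.17.1 and matplotlib 3.10.9 were used, and the fits were tested on simulated data. Annotation was GENCODE M21, and promoters came from RefSeq on GRCm38.p6.

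The members and gene lists were chosen with earlier results of these data known. Named were all members and, per related list, genes called, the 2 with the largest mean, the 2 with the largest averaged difference between the lines at a mean of at least 5 CPM, and the 5 genes most like Kit. The marker lists covered mast cell granules, basophils, eosinophils, erythroid cells, megakaryocytes, melanocytes, group 2 innate lymphoid and regulatory T cells, macrophages, endothelium, T cells, fibroblasts and skeletal muscle. Groups share replicate numbers, each tumor was from its own mouse, and the labels tie no numbers together. The numbers were not taken to pair the tumors, and a fit with the number as a block was an alternative. Replicates were separate mice, so the spread between them includes that between animals.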

Additional observations from a re-analysis of the deposited data

How the results depend on the processing

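No member was called by edgeR with all 12 libraries, and this count became 1 in 3 settings, each time Gata1: 1 with only the libraries compared (P815-M light against dark), 1 with ComBat-seq for the lines in the dark and 1 with ComBat-seq for the lines averaged. These settings also called more of all genes tested, namely 1.55%, 2.89% and 3.16% in this order. Over the alternatives for a chosen set of results, 365 of 381 fold changes kept their direction and side of the threshold, 13 turned their sign and 3 newly passed. The set held Gata1 in every comparison, Kit, Gata2, Tal1, Mitf and Il1rl1 in only some, and no result of Cd200r3. Fold changes outside this set, some of them near 0, were not counted. For Tal1 between the lines, averaged, the value turned from 0.44 with all 12 libraries to -0.057 with a batch term for the deep libraries, -0.055 without them and -0.046 with ComBat-seq. For Mitf it turned from 0.78 to -0.21, -0.22 and -0.20 in the same settings, which adjust for or leave out the 2 libraries in which both genes were highest. Leaving out 1 library at a time gave -0.36 to 0.90 for Gata1 in P815-IFNG light against dark, -0.26 to 0.026 for Gata2 and -0.30 to 0.030 for Kit between the lines averaged, and no member was called. Genes called over all genes for the averaged lines were 17 with edgeR, 241 with DESeq2, 252 without the deep libraries, 594 with ComBat-seq and 4 to 20 when 1 library was left out.

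With the replicate block, members called stayed at 0 in all 7 comparisons and genes called for the averaged lines went from 17 to 12. Gata1 was at -1.24 for the averaged lines (edgeR adjusted p = 0.202). The block changed no call of a member. Deviations from the group means of P815-IFNG light and dark libraries correlated at 0.869, 0.855 and 0.966 for the same number, the last pair being the deep libraries. Libraries 1 and 2 of these groups correlated at 0.837 and 0.860 across different numbers, so the values followed the kind of library and show no pairing by number. Other same-numbered pairs correlated at -0.34 to 0.376. The permutation tests of Kit (p = 0.01 for the lines, p = 0.0167 for light, exact) and Gata2 (p = 0.01 for the lines, p = 0.0333 for light, exact) passed 0.05 only without the deep libraries. Fcer1a, Ms4a2 and Mrgprb1 were too close to 3 counts in the 10 libraries for a difference to be detectable. Cd200r3 was tested there and not called, with 6 of the 10 libraries at or under 3 counts. With all 12 libraries its log2 fold change of light against dark was -1.76 (SE 1.23) in P815-IFNG and -1.19 (SE 0.885) averaged over the lines.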

Other observations

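The genes whose levels over the 10 libraries were most like Kit, by Pearson's r of log2(CPM + 1) among 10019 genes with a mean of at least 10 CPM, were Slc39a6 (r = 0.98), Furin (0.93), Pdia4 (0.92), Rab27b (0.92) and Hs6st2 (0.92), and Gata2 was at rank 12. Slc39a6, a zinc transporter, had 145 to 295 CPM in the 10 libraries and 493 to 664 CPM in the deep ones. Furin, a protease that processes precursors, had 451 to 846 CPM and 541 to 569 CPM in the deep ones, so it did not share the height of Kit there. Rab27b, which takes part in granule secretion, had 58.7 to 167 CPM and 385 to 417 CPM in the deep ones. The 10 points share 2 lines and their depth, so the values are a description.

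In the 10 libraries Cebpa, a factor that opposes Mitf between basophils and mast cells, was called in P815-M light against dark. It had 34.8, 36.4 and 37.1 CPM in P815-M light and 16.4, 11.5 and 16.0 CPM in P815-M dark, with a log2 fold change of 1.27 (edgeR adjusted p = 0.0202). P815-IFNG dark had 47.2 and 38.9 CPM, 1.54 above P815-M dark on the log2 scale (edgeR adjusted p = 0.00682), but the deep P815-IFNG dark library had 4.96 CPM, and with all 12 libraries Cebpa was not called. Also called in the 10 libraries for the lines in the dark were the macrophage genes C1qa (1.59) and C1qb (1.60), the matrix gene Dcn (1.30), the complement receptor gene C3ar1 (1.25) and Itgae (-1.65), and C1qa (1.09) in P815-M light against dark. The macrophage sum was 1133 and 1343 CPM in these P815-IFNG dark libraries and 631 to 754 CPM in P815-M dark. The deep P815-IFNG dark library, left out there, had a macrophage sum of 407 CPM, with C1qa at 56.3 CPM, under all P815-M dark values (57.3 to 131), C1qb at 68.9 CPM and C3ar1 at 23.4 CPM, both within the P815-M dark range, and Dcn at 171 CPM, above it. In this sum Csf1r, which has an exon overlap on the other strand, had 42.5 CPM, against 224 to 277 CPM in P815-M dark. The fibroblast list summed to 2630 to 6675 CPM, the T cell list to 1.46 to 19.2 CPM and the skeletal muscle list to 91.4 to 560 CPM in the 10 libraries, with the muscle sum highest in the second P815-M dark library.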
